A study of Mus musculus with 6 samples.

Results

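The genes described here encode the proteins of the cytosolic ribosome. They are the rows of the deposited expression table whose mouse gene name has the form Rpl or Rps with a number, together with Rpsa, Rplp0, Rplp1, Rplp2 and Fau. Pseudogene names with -ps and the S6 kinases were left out, and the mean over the 6 libraries had to reach 1 FPKM. FPKM, the unit of all levels below, is a fragment count divided by the length of the transcript and by the total of the library. Of 85 matching rows, 82 met the minimum, 34 of them for proteins of the small subunit and 48 for proteins of the large subunit, out of 18708 rows in the table. The 3 rows under the minimum were Rpl32l, Rpl39l and Rpl3l, with means of 0.027, 0.015 and 0.0083 FPKM and at 0 in at least 4 libraries each, and the lowest rows above it were Rps4l and Rpl7l1, with means of 21.5 and 23.1 FPKM. The rule uses names and a minimum level, and does not use the difference between genotypes.

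RNA came from stomach corpus, the acid-secreting part of the stomach, of C57BL/6 mice aged 6 months. One group was wild type (WT, 3 mice) and the other had the genotype R122C, an amino acid substitution in RUNX3, a transcription factor (3 mice), with 1 mouse per library. The sources used here do not give zygosity, sex or the strandedness of the libraries. Whole tissue was used, so the values are sums over all cell types of the corpus.

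The markers of the labelled tissue were present. The table held 5 parietal, 4 pit and 3 neck cell markers and 4 of 6 listed chief cell marker names. None was at 0 in all libraries, but the neck marker Cttnbp2 was at only 0.12 to 0.28 FPKM. The groups differed in the summed levels of some of these markers. The summed level of the 4 pit markers was 104449 to 242853 FPKM in WT and 53176 to 77647 in R122C, and that of the 3 neck markers was 3145 to 4920 in WT and 15652 to 21684 in R122C. R122C 3 stood apart, with 901 FPKM for the parietal markers against 4000 to 8153 in the other 5 libraries, and 493 FPKM for 6 squamous markers (Krt5, Trp63 and others) against 0.38 to 52.2. In the ribosomal protein genes the library that stood apart was the number 3 library of each group, and main results are given with and without that pair.

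The cytosolic ribosome joins a small subunit, which reads the messenger RNA, to a large subunit, which forms the peptide bond. Each subunit holds a set of proteins that is needed in nearly equal amounts. Their genes are scattered over the genome, and in mammals most of their messenger RNAs start with a C followed by a run of pyrimidines, the 5′ terminal oligopyrimidine (TOP) tract, through which the growth regulator mTOR controls their translation. In the gastric corpus, protein synthesis is heavy in the secretory cells, above all the chief cells. The mammalian genome also carries many processed pseudogenes of these genes, which are copies of the messenger RNA.

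The 82 genes lay on 20 chromosomes. RefSeq start regions (build GRCm38.p6, 250 bases before to 50 after an annotated start) were found for 61 of the 82, with 72 windows. The sequences below run 5′ to 3′ from 60 bases before the start to 15 bases from it on, and are shown because they belong to genes on which the comparisons turn. They are Rpl27a with the smallest adjusted p of the 82, Rpl34 with the largest fold change, the parent and paralog pairs of Rps27 and Rpl22, and Rps26 and Rpl28, which stood out in the number 3 libraries. Capitals mark TOP-like hexamers on the sense strand anywhere in the printed stretch, namely CTTTTC, the variant form CTTTCC, or the shifted form CTCTTT, which can overlap each other.
Rpl27a (chr7:109519135-109519209, plus strand): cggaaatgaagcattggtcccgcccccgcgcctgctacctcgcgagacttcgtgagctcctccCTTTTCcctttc
Rpl34, downstream start (chr3:130730323-130730397, minus strand): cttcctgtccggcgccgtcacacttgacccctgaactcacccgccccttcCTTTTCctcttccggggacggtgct
Rps27 (chr3:90213634-90213708, minus strand): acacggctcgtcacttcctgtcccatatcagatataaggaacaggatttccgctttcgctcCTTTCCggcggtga
Rps27l, upstream start (chr9:66946026-66946100, plus strand): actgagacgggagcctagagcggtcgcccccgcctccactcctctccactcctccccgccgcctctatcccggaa
Rpl22, downstream start (chr4:152325666-152325740, plus strand): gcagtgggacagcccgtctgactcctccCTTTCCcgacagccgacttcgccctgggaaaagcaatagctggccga
Rpl22l1 (chr3:28805448-28805522, plus strand): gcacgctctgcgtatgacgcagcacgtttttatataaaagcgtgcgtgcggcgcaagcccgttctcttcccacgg
Rps26 (chr10:128626492-128626566, minus strand): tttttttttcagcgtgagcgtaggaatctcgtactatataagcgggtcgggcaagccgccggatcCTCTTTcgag
Rpl28 (chr7:4792905-4792979, plus strand): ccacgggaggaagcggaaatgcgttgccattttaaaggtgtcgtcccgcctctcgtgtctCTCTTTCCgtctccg

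The hexamers stood within a few bases of the annotated start in Rpl27a, Rps27, Rps26 and Rpl28. In Rpl22 the hexamer lay farther upstream, and neither paralog window printed here held any. Counted within 25 bases on either side of the start, at least 1 of the 3 hexamers was present in 20 of the 72 windows (27.8%), against 5.55% of all 32851 mouse windows. The annotated start was a C in 31.9% of the windows and in 16.3% of all windows. Over the full 300 bases and both strands, CCGGAAG, a core bound by ETS factors, was found in 36.1% against 8.86%. AAGATGG, a core bound by YY1, was found in 18.1% against 6.34%, and GGGCGG, the SP1 core, in 62.5% against 35.7%. TATAAA was found in 9.72% of the windows and in 13.6% of all. These are matches of letters, not sites of binding, and the fold changes below were not compared between genes with and without them.

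The ribosomal protein genes were among the most abundant transcripts of the corpus and lay close together. The median of their mean levels was 531 FPKM, against 7.37 to 10.2 FPKM for the median tested gene of each library. Of the 82, 71 had a mean between 200 and 1000 FPKM, and 75 were at 100 FPKM or more in every library. None was among the 10 most abundant genes of any library. The level in WT and the level in R122C were correlated across the members, with Pearson's r of 0.992 and Spearman's rho of 0.984 (log2 means, 82 genes, a description of the same genes in both groups).

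Rpl41, which encodes the smallest ribosomal protein, had the highest mean, with 1240, 1331 and 1699 FPKM in WT 1, 2 and 3 and 1547, 1723 and 2627 FPKM in R122C 1, 2 and 3. Rplp1, a protein of the stalk, came next at 1473, 1165 and 999 FPKM in WT and 1597, 1530 and 1474 FPKM in R122C. The R122C libraries were all above the WT libraries for Rplp1, with R122C 3 close to WT 1, and overlapped them for Rpl41. At the low end, Rps15a had 40.4, 34.0 and 22.3 FPKM in WT and 58.6, 50.4 and 35.7 in R122C. Rps20 had 77.3, 81.6 and 54.1 FPKM in WT and 101, 115 and 91.0 FPKM in R122C, all above WT. The highest mean was 78.7 times the lowest, although the proteins are needed in nearly equal amounts.

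FPKM divides by a transcript length chosen by the authors' pipeline, and the lowest genes include ones with long annotated transcripts. The 1 annotated coding transcript of Rps20 has 3706 bases in GENCODE M21. The joined exons of Rps15a span 6270 bases, the longest of the 82, but its 6 coding transcripts have a median length of 638.5 bases. Rps24, with 6256 bases of joined exons, had a mean of 517 FPKM. Across the 82 genes the log2 length of the joined exons and the log2 mean level had a Pearson's r of −0.301 and a Spearman's rho of −0.318. Sequence shared with other genes also touches these levels. A median of 37.1% of a member's 50-base stretches also occurred in transcripts of another gene, and 81 of 82 shared at least 1 stretch with an annotated pseudogene. In 28 members over 50% of the stretches were shared, among them Rpl36a, Rpl5, Rpl10, Rpl30, Rpl3, Rps27a and Rps12, so their levels are uncertain where the counting could split or drop reads. Rps4l (chromosome 6, 148354656 to 148355598, plus strand) is itself annotated as a transcribed processed pseudogene.

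**Figure D1:**
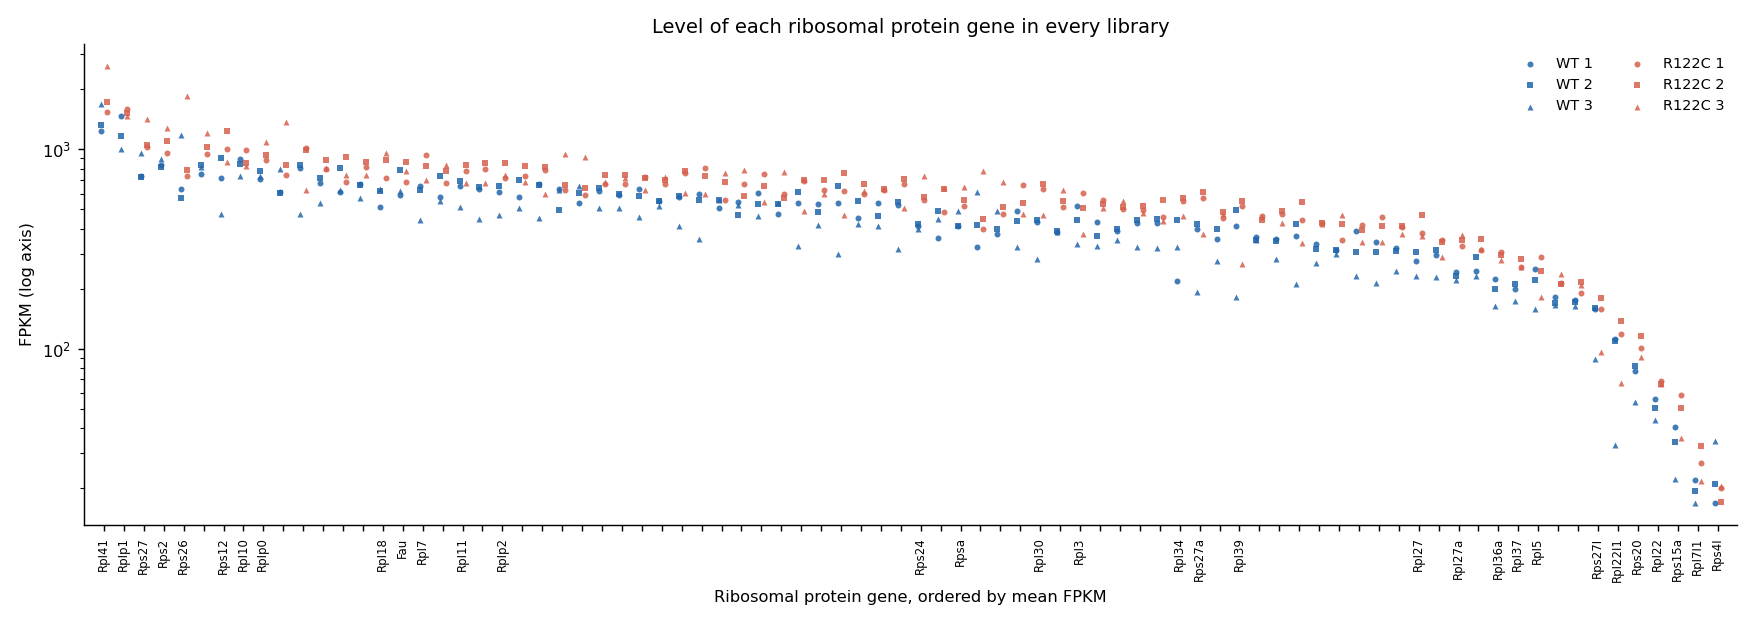
FPKM (log axis) of the 82 ribosomal protein genes in each of the 6 libraries, ordered by mean level, with some of the genes named on the axis; blue points are WT, red points are R122C, and circles, squares and triangles are libraries 1, 2 and 3. Most genes lie between 200 and 1000 FPKM, red points tend to lie above blue points, and the triangles scatter most.

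The comparison between genotypes asks whether the corpus of R122C mice held more or less ribosomal protein messenger RNA. Levels were tested as log2(FPKM + 1), so a fold change is on that scale. Nearly every ribosomal protein gene had a higher mean in R122C by a like small amount, and none passed the test in the fit without a block. The log2 fold change, R122C minus WT, was above 0 in 81 of 82 members, with a median of 0.40. Over all 11422 genes tested, 61.1% were above 0 and the median was 0.10. By limma with Benjamini-Hochberg adjustment over all tested genes, 0 of 82 members were called higher and 0 lower at an adjusted p of 0.05, where 6.1% of all tested genes were called, 5.27% higher and 0.832% lower. At an unadjusted p under 0.05, limma gave 16 members (19.5%), all higher, against 15.3% of all genes higher and 4.88% lower. All 3 R122C libraries lay above all 3 WT libraries in 45 members (54.9%), against 20.3% of all tested genes, and the reverse order occurred in 0 members against 5.19%. The median SD within groups was 0.20 on the log2 scale in the members and 0.28 in all tested genes. With a smaller spread, groups separate more often at the same shift. The members also varied together across the same libraries, so these counts are not counts of independent genes. Limma with array weights called 17 of the 82 members, all higher, and 2006 of all 11422 tested genes higher, so the fractions lay close together. In bulk tissue, more cells of a type and more RNA per cell cannot be told apart.

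The size of the difference followed the scaling, while its direction held. Scaling by the median of ratios moved the median of all genes from 0.10 to −0.0049, and left the members' median at 0.28, with 79 of 82 above 0 (49.4% of all genes) and 0 called higher (3.65% of all genes). After quantile normalization the members' median was 0.15 and that of all genes −0.06, with 72 of 82 above 0 (43.1% of all genes) and 0 called higher (3.55% of all genes). With each library set to a common total the members' median was 0.63 and that of all genes 0.30, with 81 of 82 above 0 (79.1% of all genes), and 13 members were called higher (11.2% of all genes). Relative to the median of all genes, the members' median was 0.31 higher in the values as deposited, and 0.29, 0.21 and 0.33 higher under those scalings in the same order. Without both number 3 libraries the members' median was 0.32, that of all genes 0.14, 81 of 82 were above 0, and 0 were called.

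**Figure D2:**
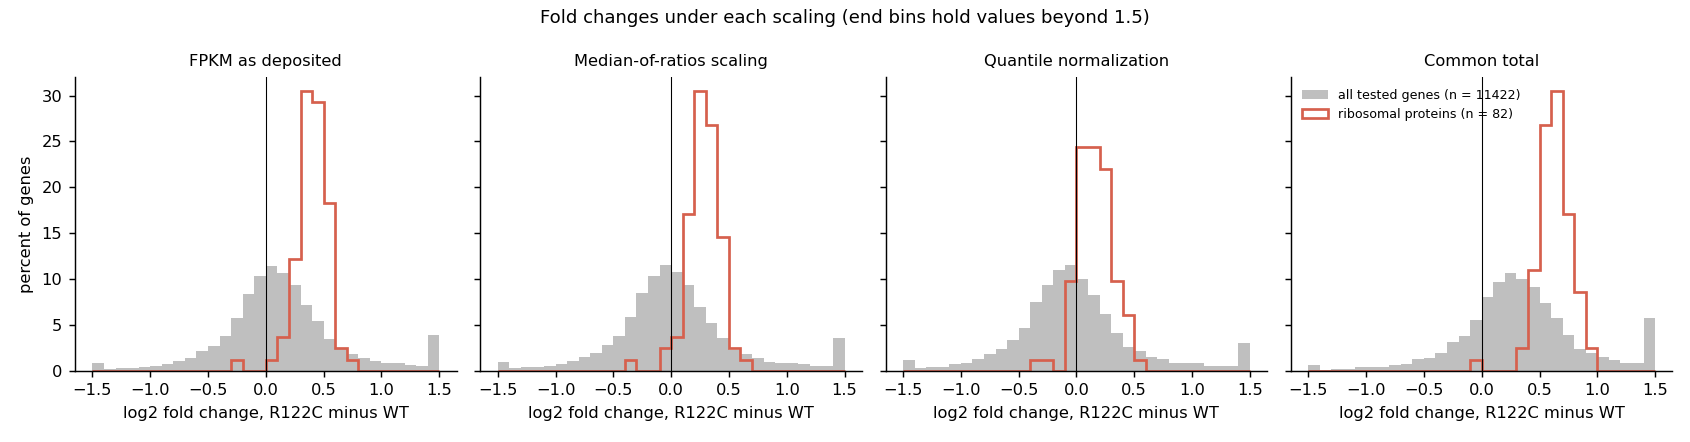
Distribution of log2 fold changes (R122C minus WT, horizontal axis) as a percentage of genes (vertical axis) under 4 scalings; grey bars are all 11422 tested genes and the red outline is the 82 ribosomal protein genes. The red outline is narrower than the grey bars and lies to the right of their centre in every panel, by 0.21 to 0.33 at the median.

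The members' difference was present in each R122C library, while the median of all genes differed between these libraries. Relative to the WT mean, the members' median was 0.39 in R122C 1, 0.46 in R122C 2 and 0.34 in R122C 3. The median of all tested genes was 0.28, 0.10 and −0.09 in the same libraries. The members were thus nearest to the median of all genes in R122C 1 and farthest above it in R122C 3. Members above their WT mean numbered 78, 81 and 74 of 82.

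The share of the summed FPKM taken by the 82 genes gave the same order on a linear scale. It was 5.68%, 5.64% and 4.83% in WT 1, 2 and 3 and 8.10%, 8.08% and 8.71% in R122C 1, 2 and 3. The groups did not overlap. The means were 5.38% ± 0.48 and 8.30% ± 0.36 (SD, n = 3 each), a difference of 2.91 percentage points and a ratio of 1.54, with p = 0.1 by an exact two-sided permutation test, the smallest p that 3 against 3 allows. Without both number 3 libraries the difference was 2.43 points, with an exact p of 0.333, the smallest that 2 against 2 allows. The 10 most abundant genes took 46.1%, 45.3% and 46.2% in WT and 24.5%, 29.1% and 29.1% in R122C. Leaving those 10 genes out of each library's sum brought the members' share to 10.5%, 10.3% and 8.98% in WT and 10.7%, 11.4% and 12.3% in R122C. The ratio then was 1.15, with a difference of 1.52 percentage points and again p = 0.1 by the exact test, and WT 1 and R122C 1 lay close together. Without both number 3 libraries and the 10 most abundant genes the difference was 0.63 points, with an exact p of 0.333. Of the members' summed FPKM, the small subunit genes supplied 42.8% ± 0.72 (SD, n = 3) in WT mice and 42.8% ± 0.56 (SD, n = 3) in R122C mice, with an exact permutation p of 0.9.

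**Figure D3:**
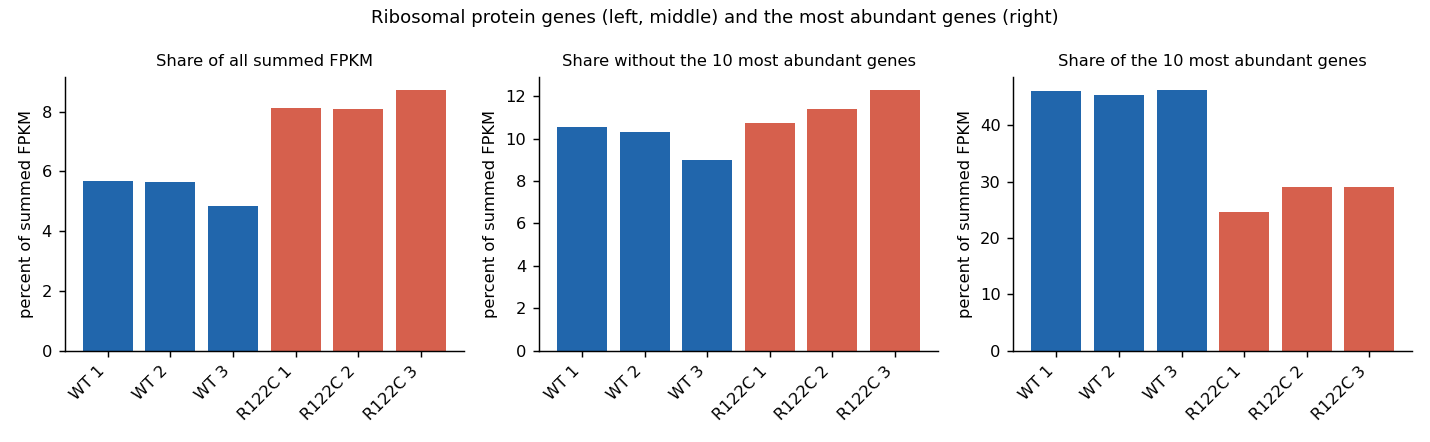
Percent of the summed FPKM (bars, 1 per library, axis from 0) taken by the 82 ribosomal protein genes, by the same genes once the 10 most abundant genes of each library are left out, and by those 10 genes; blue bars are WT and red bars R122C. The left panel separates the groups by 2.91 points at the mean, the middle panel by 1.52 points.

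Among the small subunit genes the median log2 fold change was 0.40, with 33 of 34 above 0 and 13 with groups that did not overlap. Among the large subunit genes it was 0.41, with 48 of 48 above 0 and 32 without overlap. Rpl27a (chromosome 7, 109519147 to 109522367, plus strand), a large subunit protein, had 242, 231 and 221 FPKM in WT and 328, 351 and 373 FPKM in R122C. The groups were well apart, and Rpl27a had the smallest adjusted p of the 82, with a log2 fold change of 0.60 ± 0.18 (SE) and a limma adjusted p of 0.0947. Rpl34 (chromosome 3, 130726831 to 130730398, minus strand) had the largest fold change of the members. Its levels were 219, 440 and 322 FPKM in WT and 552, 571 and 465 FPKM in R122C, with WT 1 lowest and no overlap. The log2 fold change of 0.75 ± 0.27 had a limma adjusted p of 0.171, and it was 0.49 without WT 1.

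Rps24 (chromosome 14, 24487125 to 24496959, plus strand), mutated in some families with Diamond-Blackfan anaemia, had 412, 423 and 400 FPKM in WT and 559, 575 and 734 FPKM in R122C. No libraries overlapped, and the log2 fold change was 0.59 ± 0.20 with a limma adjusted p of 0.145. Rpl27 had 274, 307 and 232 FPKM in WT and 380, 470 and 366 FPKM in R122C, again without overlap, with 0.58 ± 0.21 and an adjusted p of 0.16. Rpl18 had 512, 617 and 633 FPKM in WT against 721, 888 and 962 FPKM, also without overlap, with 0.54 ± 0.22 and an adjusted p of 0.213.

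In several members with fold changes as large, the spread was wider or sequence was shared with other genes. Rpl36a, an X-linked gene with 85.5% of its 50-base stretches found elsewhere, had 223, 200 and 163 FPKM in WT and 305, 296 and 280 FPKM in R122C. Its groups did not overlap, and the log2 fold change of 0.60 ± 0.19 had a limma adjusted p of 0.12. Rpl30, with 72.8% shared, had 434, 440 and 281 FPKM in WT and 633, 667 and 471 FPKM in R122C, with 0.63 ± 0.26 and an adjusted p of 0.215. Rps12 overlapped between groups, at 717, 900 and 476 FPKM in WT and 1003, 1232 and 860 FPKM in R122C. In Rpl30 and Rps12 the number 3 library was the lowest of both groups, and R122C 3 was the R122C library nearest to WT. Among the 17 members with at most 20% of their stretches shared, 16 were above 0, with a median log2 fold change of 0.41. The shared percentage and the fold change had a Pearson's r of −0.009 and a Spearman's rho of −0.045 across the 82 genes.

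Grouped by position in the ribosome, the medians lay between 0.25 for the 5S particle and 0.41 for the messenger RNA exit side. The 3 stalk proteins, which recruit the GTPases of translation to the large subunit, all had non-overlapping groups. Rplp0 had 713, 782 and 739 FPKM in WT and 882, 937 and 1088 FPKM in R122C (log2 fold change 0.37 ± 0.21, limma adjusted p 0.362). Rplp2 had 610, 656 and 469 FPKM in WT and 718, 858 and 744 FPKM in R122C (0.43 ± 0.22, adjusted p 0.33). Rpl5 and Rpl11 assemble with the 5S RNA, and outside the ribosome their complex binds the p53 inhibitor Mdm2. Both overlapped between groups. Rpl11 had 655, 693 and 513 FPKM in WT and 778, 837 and 677 FPKM in R122C (0.31 ± 0.22, adjusted p 0.497), and Rpl5 had 249, 221 and 158 FPKM in WT and 289, 244 and 181 FPKM in R122C (0.18 ± 0.25, adjusted p 0.759). Quantile normalization put Rpl11 at −0.03.

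Fau and Rps27a are made as fusions to a ubiquitin-like protein and to ubiquitin. Fau had 589, 784 and 616 FPKM in WT and 688, 869 and 776 FPKM in R122C, and Rps27a had 396, 421 and 192 FPKM in WT and 568, 609 and 376 FPKM in R122C. Both overlapped, with log2 fold changes of 0.23 ± 0.22 and 0.67 ± 0.34 and limma adjusted p of 0.622 and 0.321. Quantile normalization put Fau at −0.04. Rpsa, a small subunit protein also studied as a laminin-binding protein, had 414, 414 and 488 FPKM in WT and 519, 560 and 651 FPKM in R122C, without overlap (0.39 ± 0.20, adjusted p 0.33). Non-overlapping groups, all higher in R122C, occurred in 20.3% of all tested genes and 54.9% of the 82 members, and the counts in the small lists that follow describe those lists only. Of 9 proteins at the peptide exit tunnel, 5 had non-overlapping groups and the median log2 fold change was 0.34. The 5 proteins around the decoding site and messenger RNA entry and the 5 on the exit side had medians of 0.38 and 0.41, with 2 non-overlapping genes in each. Among 10 genes mutated in Diamond-Blackfan anaemia, 5 had non-overlapping groups and the median was 0.39.

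Members of both subunits had small differences, the smallest being that of Rps27l, a small subunit gene described below (log2 fold change 0.09 ± 0.31). Rpl10, which joins the large subunit late in its assembly, had 895, 841 and 734 FPKM in WT and 990, 859 and 827 FPKM in R122C (0.12 ± 0.21, limma adjusted p 0.827). Rpl3, near the peptidyl transferase centre, had 518, 443 and 334 FPKM in WT and 604, 510 and 375 FPKM in R122C (0.20 ± 0.26, adjusted p 0.746). The groups overlapped in both, and both were below 0 after quantile normalization, at −0.22 and −0.02. Over 50% of the sequence of each is shared with other genes. Rps4l was the only member with a lower mean in R122C, at 16.8, 20.8 and 34.2 FPKM in WT and 20.04, 17.0 and 20.5 FPKM in R122C. This rested on WT 3, since the log2 fold change of −0.25 ± 0.26 (adjusted p 0.667) was 0.03 without that library.

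Within each group the number 3 library had its own ribosomal protein profile, and the genes departed in a like order in WT 3 and R122C 3. The departure of WT 3 from the mean of WT 1 and WT 2 and the departure of R122C 3 from the mean of R122C 1 and R122C 2 had a Pearson's r of 0.907 and a Spearman's rho of 0.913 across the 82 genes. Across all 11422 tested genes the values were 0.365 and 0.535. These correlations are descriptions over genes, which share libraries and are not independent. Both departures had the same sign in 66 members, up in 17 and down in 49. The size of the departures differed, with a median over the members of −0.28 in WT 3 and −0.08 in R122C 3. The number 3 library was the lowest of its group in 61 members in WT and 43 in R122C.

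Rps26, a protein at the messenger RNA exit and the member farthest from the mean profile, had 631, 569 and 1185 FPKM in WT and 733, 788 and 1850 FPKM in R122C. The number 3 library was thus the highest of each group by 0.98 and 1.28 on the log2 scale, and the groups overlapped. Rpl28, chosen for description after its values were seen, departed in the same direction. It had 613, 604 and 801 FPKM in WT and 741, 836 and 1376 FPKM in R122C, departures of 0.39 and 0.80.

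Other members went the opposite way. Rpl39, an X-linked protein lining the exit tunnel, had 414, 499 and 182 FPKM in WT and 517, 550 and 264 FPKM in R122C, so that the number 3 library lay 1.32 and 1.01 below the others. Rpl22l1 had 112, 109 and 32.8 FPKM in WT and 118, 138 and 67.5 FPKM in R122C, departures of −1.72 and −0.91. Rps27a departed by −1.08 and −0.64. By contrast Rpl37, the member nearest to the mean profile, had 198, 211 and 172 FPKM in WT and 257, 282 and 255 FPKM in R122C, without overlap (log2 fold change 0.45 ± 0.18, limma adjusted p 0.207). For Rpl39 and Rpl22l1 the fold changes of 0.33 ± 0.42 and 0.48 ± 0.47 (adjusted p 0.732 and 0.646) were −0.11 and −0.09 without WT 3.

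The labels name no batch. The GC percent of the transcripts moved with the departures, with a Pearson's r of 0.408 for WT 3 and 0.363 for R122C 3 over the 81 members with a coding transcript, and of 0.271 and 0.173 over 10870 tested genes. Depth, the number of fragments, was estimated from the spacing of low values. Among the 5 libraries with a stable estimate, depth was lowest in the number 3 pair. It was 31600000 to 31900000 fragments in WT 3 and 31700000 to 32600000 in R122C 3. In WT 2, R122C 1 and R122C 2 it was 38300000 to 45100000 fragments. The parts of GC percent and depth in the shared profile were not tested. GC percent and the genotype fold change had a Pearson's r of −0.173 and a Spearman's rho of −0.245 over the 81 members.

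**Figure D4:**
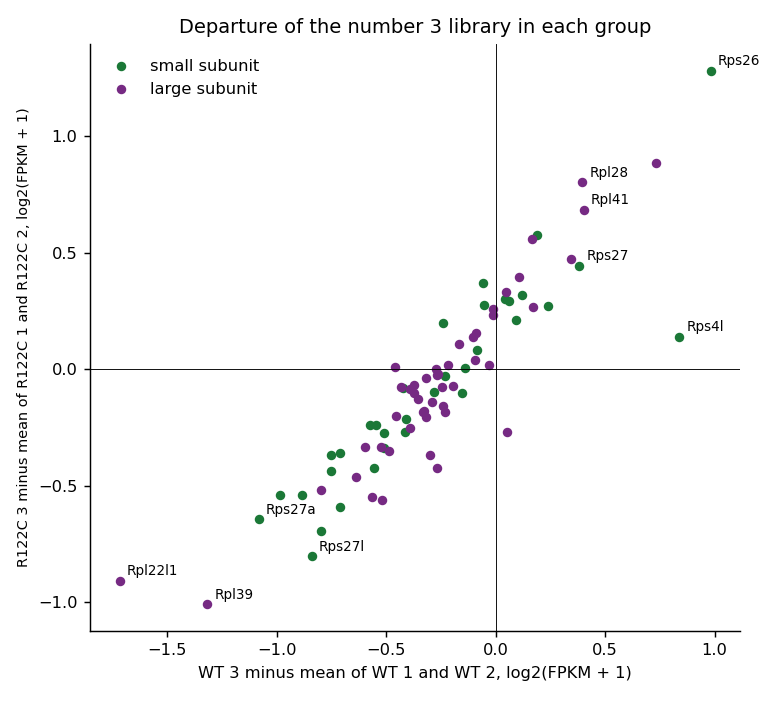
Each point is 1 of the 82 ribosomal protein genes; the horizontal axis is the departure of WT 3 from the mean of WT 1 and WT 2 and the vertical axis the departure of R122C 3 from the mean of R122C 1 and R122C 2, both in log2(FPKM + 1). The points lie along a rising line (Pearson's r 0.907), from Rpl22l1 and Rpl39 at the lower left to Rps26 at the upper right, with Rps4l off it.

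Some ribosomal protein genes have a paralog, a related gene, and the ratio of paralog to parent does not depend on a library's total. A ratio could be tested for 3 pairs. Rpl3l and Rpl39l were at 0 in several libraries, and Rpl10l was not analysed here. None of the paralogs in the 3 pairs shared a 50-base stretch with its parent (0 of 560 stretches in Rpl22l1, 0 of 625 in Rps27l and 0 of 3142 in Rpl7l1).

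Rpl22l1 is held down by its parent Rpl22 in mouse cells, and its level exceeded that of Rpl22 in 5 of the 6 libraries. Rpl22 had 55.9, 50.2 and 44.0 FPKM in WT and 69.0, 66.5 and 66.6 FPKM in R122C, without overlap (log2 fold change 0.43 ± 0.17, limma adjusted p 0.204). The ratio of Rpl22l1 to Rpl22 was 2.001, 2.17 and 0.746 in WT and 1.71, 2.08 and 1.01 in R122C. The number 3 libraries had the lowest ratio of each group and the groups overlapped. The means were 1.64 ± 0.78 in WT and 1.60 ± 0.54 in R122C (SD, n = 3 each). The difference in mean log2 ratio, R122C minus WT, was 0.05 ± 0.58 (SE), opposite in sign to that of the plain means. It had an exact two-sided permutation p of 0.9, and 0.9 after adjustment over the 3 pairs. Its sign turned when WT 3 or either of R122C 1 and R122C 2 was left out.

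Rps27l, a target of p53 that resembles Rps27, had 159, 160 and 88.5 FPKM in WT and 158, 178 and 95.7 FPKM in R122C (log2 fold change 0.09 ± 0.31, limma adjusted p 0.918). Rps27 had 735, 728 and 954 FPKM in WT and 1030, 1052 and 1417 FPKM in R122C, without overlap (0.53 ± 0.24, adjusted p 0.264). The ratio of Rps27l to Rps27 was 0.216, 0.219 and 0.0928 in WT and 0.153, 0.170 and 0.0676 in R122C. The number 3 libraries again had the lowest ratio of each group, and the groups overlapped. The log2 ratio differed by −0.44 ± 0.59 with an exact permutation p of 0.5 and 0.9 after adjustment. Rps27l itself fell on the other side of 0 under median-of-ratios scaling and quantile normalization, at −0.03 and −0.04.

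Rpl7l1, a low-abundance relative of Rpl7, had 21.8, 19.4 and 16.9 FPKM in WT and 26.7, 32.5 and 21.7 FPKM in R122C. Rpl7 had 653, 622 and 443 FPKM in WT and 941, 820 and 698 FPKM in R122C (log2 fold change 0.53 ± 0.24, limma adjusted p 0.268). Their ratio was 0.0334, 0.0311 and 0.0380 in WT and 0.0284, 0.0396 and 0.0311 in R122C, which overlapped. The log2 ratio differed by −0.06 ± 0.17 with an exact permutation p of 0.7 and 0.9 after adjustment. With 3 libraries per group, none of these ratios could have reached a p under 0.1.

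Other parts of the translation apparatus had a smaller median difference than the ribosomal proteins, given here as a description with no test between lists. Of 77 mitochondrial ribosomal protein genes, which serve a separate ribosome, 61 were above 0 with a median log2 fold change of 0.16, and 0 were called. The median was −0.0077 after quantile normalization. The one of smallest p was Mrps18b, at 20.5, 24.4 and 28.9 FPKM in WT and 28.8, 41.8 and 34.2 FPKM in R122C (0.48 ± 0.21, limma adjusted p 0.239). The 28 initiation factors had a median of 0.23 with 22 above 0 and 0 called, and the 11 factors that meet the nascent chain had a median of 0.23 with 10 above 0 and 0 called. Eif4e, the cap-binding protein, had 10.2, 9.13 and 9.23 FPKM in WT and 12.4, 15.7 and 13.9 FPKM in R122C (0.51 ± 0.17, adjusted p 0.144). Btf3, a subunit of the nascent chain-associated complex, had 199, 220 and 196 FPKM in WT and 280, 299 and 305 FPKM in R122C (0.52 ± 0.17, adjusted p 0.134).

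The 7 elongation factors and related genes came nearest to the ribosomal proteins, with all 7 above 0 (6 after quantile normalization), a median of 0.36 and 0 called. Eef1g, whose messenger RNA has a TOP tract, had 255, 231 and 230 FPKM in WT and 377, 349 and 333 FPKM in R122C, without overlap (0.56 ± 0.18, limma adjusted p 0.113). Among ribosomal proteins whose names fall outside the rule, Rack1 and Rpl36al had log2 fold changes of 0.27 and 0.30, with limma adjusted p of 0.509 and 0.556.

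Genes that host small nucleolar RNAs in their introns and whose spliced transcripts can carry TOP tracts had larger differences. Of 8 listed genes 7 were in the table, and all 7 were above 0, with a median of 0.95, and 2 were called higher. Gas5 had 2.81, 2.08 and 1.63 FPKM in WT and 5.37, 6.23 and 5.57 FPKM in R122C, so it rose by 1.10 ± 0.21 on the log2 scale (limma adjusted p 0.0199). Snhg12 had 5.81, 4.16 and 4.60 FPKM in WT and 10.5, 12.1 and 9.44 FPKM in R122C, so it rose by 1.00 ± 0.20 (adjusted p 0.0216). The groups were well apart in both. Both calls were lost when WT 2, WT 3 or R122C 2 was left out, with adjusted p of 0.0968, 0.0846 and 0.106 for Gas5 and 0.114, 0.0852 and 0.12 for Snhg12. Both were also lost when both number 3 libraries were left out (0.0915 and 0.0608). Since the strandedness of the counting is not given, reads of overlapping neighbours cannot be told apart from those of the host genes.

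**Figure D5:**
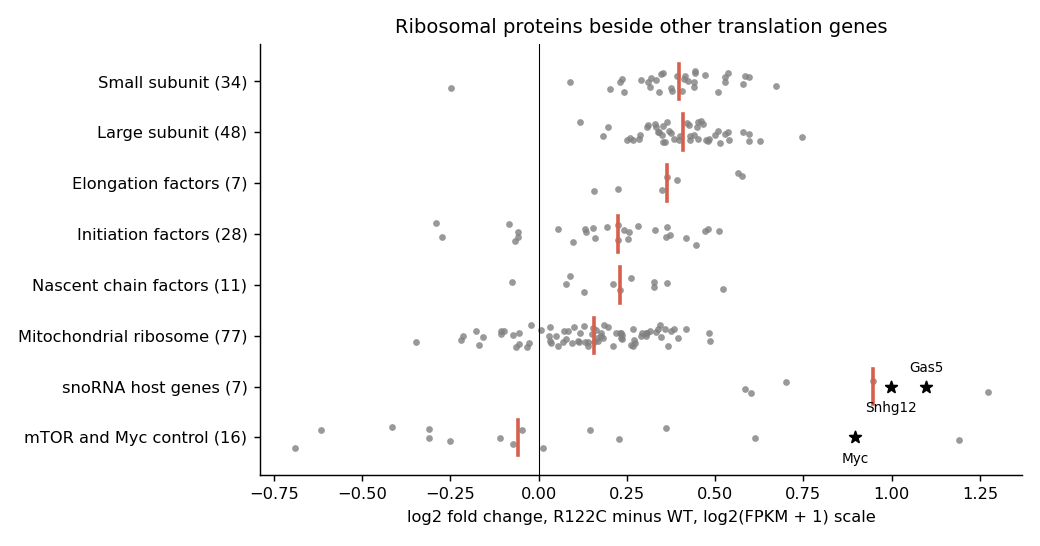
Log2 fold changes (R122C minus WT, on the log2(FPKM + 1) scale) of the tested genes in each list, with the number of genes in brackets; grey points are genes not past the test, black stars are genes at an adjusted p under 0.05, and red bars are medians. The subunits of the cytosolic ribosome have medians of 0.40 and 0.41, the mitochondrial ribosome 0.16, and the stars are Gas5, Snhg12 and Myc.

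Of 16 tested genes for mTOR signalling and Myc, which regulate ribosome production, 7 were above 0 and 1 was called. Their median log2 fold change was −0.06 (0.15 with a common total). The list mixes activators of mTOR signalling with inhibitors such as Tsc1 and Tsc2, so these figures cannot show whether the pathway had a common direction. Myc, the transcription factor that promotes ribosome synthesis, had 9.81, 7.97 and 11.7 FPKM in WT and 16.2, 17.9 and 23.3 FPKM in R122C. No libraries overlapped, and Myc rose by 0.90 ± 0.21 (limma adjusted p 0.0452). This call was near the threshold. In 10 of 20 alternative settings it was lost, among them the fit without both number 3 libraries. It was lost without any of WT 1, WT 2, WT 3, R122C 2 or R122C 3, with adjusted p of 0.102, 0.187, 0.0731, 0.145 and 0.0879, and under median-of-ratios scaling (0.14) and quantile normalization (0.126). Trp53, which encodes p53, had 12.8, 10.4 and 18.9 FPKM in WT and 15.7, 19.7 and 28.1 FPKM in R122C, with overlap (0.56 ± 0.28, adjusted p 0.304).

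Summed marker levels of some cell types differed between the groups along with the ribosomal proteins, and others overlapped. Besides the pit and neck markers given above, the 4 chief cell markers summed to 99315, 30818 and 54595 FPKM in WT and 13631, 25030 and 1751 FPKM in R122C. Every R122C sum was below every WT sum, and 0 of the 4 genes were called. Pgc supplied most of each sum, at 97962, 30427 and 54202 FPKM in WT and 12873, 24625 and 1537 FPKM in R122C. Gif, Bhlha15 and Pga5 overlapped between groups, with log2 fold changes of −0.75, −0.29 and 0.81, so Pga5 had the opposite sign. The 5 parietal markers summed to 4283 to 8153 FPKM in WT and 901 to 5020 FPKM in R122C, and 6 smooth muscle markers to 586 to 1036 and 648 to 754 FPKM, so both sums overlapped. The summed level of 10 proliferation markers was 137, 89.7 and 133 FPKM in WT and 169, 204 and 156 FPKM in R122C, with all 10 above 0 (9 after quantile normalization) and 0 called. The sum over 8 leukocyte markers was 44.7, 28.6 and 11.5 FPKM in WT and 49.6, 38.7 and 50.4 FPKM in R122C, which overlapped. Lyz2 supplied most of that sum in every library but R122C 3, and overlapped. Cpa3 had 2.22, 3.32 and 4.01 FPKM in WT and 14.2, 7.74 and 31.1 FPKM in R122C, and was called higher (limma adjusted p 0.0322). Ptprc did not overlap, at 0.34 to 1.12 FPKM in WT and 1.19 to 1.98 FPKM in R122C, and was not called. The sum over 5 plasma cell markers was 229 to 251 FPKM in WT and 299 to 328 FPKM in R122C. Xbp1 and Sdc1 supplied most of that sum in every library, and each overlapped between groups. Xbp1 had 142 to 170 FPKM in WT and 145 to 216 FPKM in R122C. Jchain had 8.7, 5.65 and 1.23 FPKM in WT and 21.4, 11.4 and 55.1 FPKM in R122C. Jchain and Mzb1 were higher in R122C without overlap, and neither was called (limma adjusted p 0.0812 and 0.127). Among the markers of the other cell types, Muc6, Tff2 and Krt13 were called higher and Muc5ac was called lower. The Cpa3 and Krt13 calls were lost under median-of-ratios scaling and quantile normalization. The part of these cell types in the ribosomal protein difference was not tested.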

How the data were processed

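Values were the FPKM table that the authors deposited for 6 libraries of mouse corpus RNA. The submitters' processing notes name STAR, featureCounts and mm10, with no versions, and the sources used here do not say how counts became FPKM. Raw counts were not used, so depth is not known directly; the spacing of low values gave estimates of 31600000 to 45100000 fragments for 5 libraries, which rest on GENCODE M21 lengths, and no stable estimate for WT 1. Summed FPKM ranged from 581276 to 716992. The 11422 genes whose mean reached 1 FPKM were tested as log2(FPKM + 1) with limma 3.58.1 in R 4.3.3 (empirical Bayes with trend, no covariate, Benjamini-Hochberg adjustment, threshold 0.05), after tests on simulated data. Shares and paralog ratios used exact two-sided permutation tests in scipy 1.17.1. Each library is 1 mouse. Gene positions, lengths and shared 50-base stretches are from GENCODE M21 (GRCm38).

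Named members were the 10 of largest fold change, the 5 highest and 5 lowest, paralogs with their parents, stalk, 5S, ubiquitin-fusion genes and Rpsa, and the members nearest to and farthest from the mean profile; of other lists, those called or the gene of smallest p. The members and lists were chosen with earlier results of these data known. Some genes are not reported here. Alternatives changed the pseudocount, filter, scaling, variance model, replicate block and the libraries used. Leaving out both number 3 libraries (also with the 10 most abundant genes left out), and the block with median-of-ratios scaling, were chosen after seeing the data.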

Additional observations from a re-analysis of the deposited data

How the results depend on the processing

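The members' median log2 fold change of 0.40 was 0.28 under median-of-ratios scaling, with or without the replicate block, 0.15 after quantile normalization and 0.63 with a common total, and 0.32 to 0.45 when 1 library was left out. The count of members called higher, 0 of 82, became 13 with a common total, 17 with array weights and 5 with the replicate block. Those 5 were Rpl30, Rpl27, Rpl27a, Rpl36a and Rps15a, and the block put 52 members at a limma unadjusted p under 0.05 against 16. The count was 0 in the block with median-of-ratios scaling, and stayed 0 when any 1 library was left out. Of all 11422 tested genes, 602 were called higher as reported. The number was 1274 with a common total, 2006 with array weights and 1119 with the block, and 246 of 11465 without WT 2. The fraction of members called was thus below that of all genes with the block, close to it with array weights and above it with a common total. The share difference was 2.64 to 3.06 points when 1 library was left out. No label says that the replicate numbers pair the mice, and they were not taken to. Over all tested genes, deviations of same-numbered libraries had correlations of 0.467, 0.017 and 0.365 for numbers 1, 2 and 3. Libraries of unlike number had correlations of −0.419 to 0.114. Numbers 1 and 3 thus went best with their own number over all tested genes, and number 2 did not. Over the 82 members the correlations were 0.732, 0.859 and 0.907, every library went best with its own number, and R122C was above WT in 80, 81 and 81 members within numbers, a hint from the data and not from the design.

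Signs turned in genes near 0. Rps27l was −0.031, −0.040 and −0.031 under median-of-ratios scaling, quantile normalization and the block with median-of-ratios scaling, Rpl10 was −0.0030, −0.22 and −0.0030, and Rpl3, Rpl11 and Fau were −0.024, −0.027 and −0.043 after quantile normalization. With 1 library left out the ranges were −0.46 to 0.032 for Rps4l, −0.094 to 0.78 for Rpl22l1, −0.19 to 0.36 for Rps27l, −0.11 to 0.67 for Rpl39 and −0.0045 to 0.37 for Rpl5. The log2 ratio difference ranged from −0.20 to 0.041 for Rpl7l1 to Rpl7 and from −0.44 to 0.35 for Rpl22l1 to Rpl22, and was 0.057 and −0.14 without both number 3 libraries. The cause was not tested. FPKM without counts gives no counting error, and 3 mice a group limit the exact tests to p = 0.1.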
